A study of Mus musculus with 12 samples.

Results

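Gene expression in liver was compared between Car KO/hPXR mice and WT mice, both given CITCO (an agonist of human CAR), in 6 of the 12 libraries of the series. The members were chosen by their labels of genotype and treatment, which gave 3 Car KO/hPXR libraries and 3 WT libraries. The mice were adult males, the humanised lines on a C57BL/6NTac background, and received daily intraperitoneal injections for 4 days, with CITCO at 10 mg/kg or corn oil alone, and were killed on day 5. Car KO/hPXR mice lack the mouse gene for CAR (Nr1i3) and carry the human gene for PXR in place of the mouse gene (Nr1i2). Nothing in the labels or methods says whether the WT mice were littermates. WT mice given corn oil (3 libraries) and hCAR/hPXR mice given CITCO (3 libraries, with human genes for both receptors) entered the same fit and are given beside the results where they bear on them. No Car KO/hPXR mice given corn oil were among the samples analysed here, so that the genotype and its response to CITCO cannot be told apart. Both receptor genes were altered in Car KO/hPXR mice, so that loss of CAR and replacement of PXR cannot be told apart against WT either.

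CAR and PXR are nuclear receptors of the hepatocyte that bind DNA together with RXR and switch on genes for the uptake, oxidation, conjugation and export of drugs, bile acids and steroids. Genes of the Cyp2b and Cyp2c families are classical targets of CAR, and genes of the Cyp3a family are classical targets of PXR, although each receptor can act on the targets of the other. Both receptors have also been linked to lipid and glucose metabolism in the liver. CITCO is selective for human over mouse CAR and can activate human PXR as well.

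The 3' ends of polyadenylated RNA were sequenced, and libraries held between 1172224 and 1499487 counts in Car KO/hPXR mice and between 1370330 and 1654436 in WT mice given CITCO. At this depth a count of 3 in a library, the floor used here, corresponded on average to 2.29 CPM (the usual unit of counts relative to library size, here after TMM scaling) in the Car KO/hPXR libraries. The 10 hepatocyte markers were all tested, with a median log2 fold change of 0.01, and their summed level was 32610 to 35710 CPM in Car KO/hPXR mice against 30110 to 38960 CPM in WT mice. The summed levels of 12 Kupffer cell markers (423 to 444 CPM against 390 to 575 CPM) and of 8 neutrophil markers (6.57 to 10.9 CPM against 2.81 to 9.73 CPM, with Ly6g, Elane and Retnlg at 0) overlapped between the groups. Acute phase genes set WT replicates 1 and 2 apart from WT replicate 3, as given below beside the genes concerned.

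With CITCO given to both genotypes, 22 of the 8594 genes tested (0.256%) were called, that is, changed over 1.5-fold at a Benjamini-Hochberg adjusted p under 0.05 in edgeR's quasi-likelihood test. Car KO/hPXR mice had higher levels of 14 (0.163%) and lower levels of 8 (0.0931%). The lower genes included both receptor genes and 2 Cyp2c genes. The higher genes included Insig2, a regulator of cholesterol synthesis, Acly and Acss2 of fatty acid synthesis, the mitochondrial assembly factor Samm50 and the clock repressor Nr1d1. Each of the 22 genes had no overlap between the 3 Car KO/hPXR and the 3 WT CITCO libraries. The genes were called on these same libraries, so that this is no separate support for the calls. Over all genes tested, 7.45% were higher and 6.77% were lower without overlap. Before adjustment, 799 genes had a p-value under 0.05 in edgeR, 419 of them higher and 380 lower in Car KO/hPXR mice. DESeq2 on the same 12 libraries called 67 genes (0.78%), among them 20 of the 22.

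**Figure D1:**
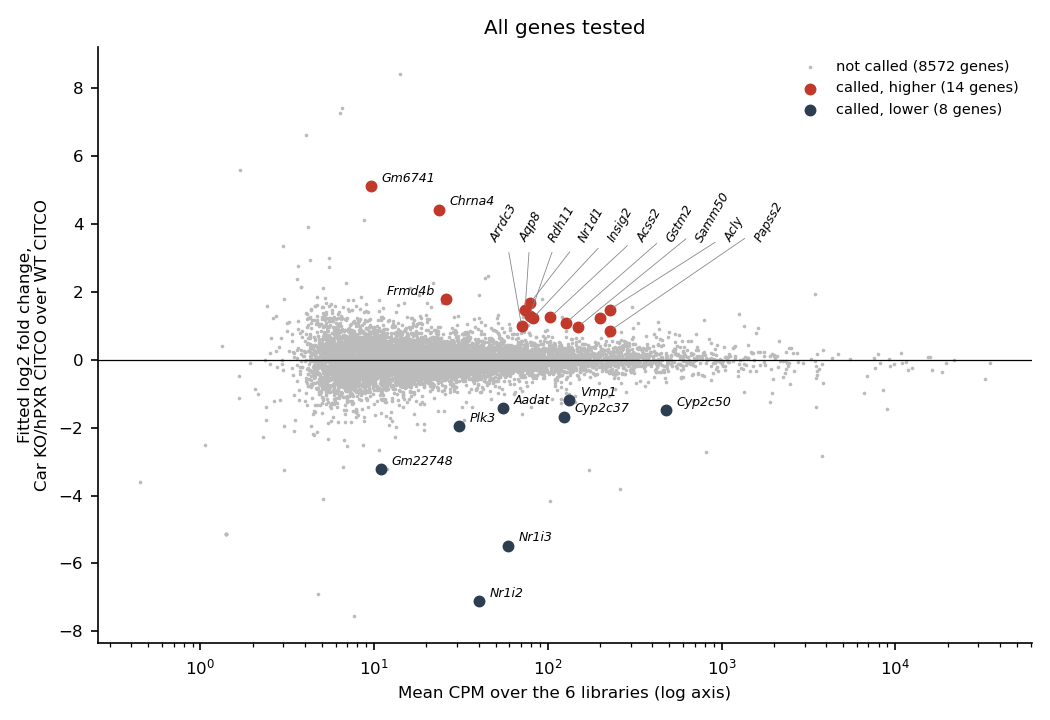
Fitted log2 fold change of Car KO/hPXR CITCO over WT CITCO (vertical axis) against the mean CPM over the 6 libraries (horizontal axis, logarithmic) for the 8594 genes tested. The 14 called higher genes are red, the 8 called lower genes are dark blue and all others are grey, and Nr1i2 and Nr1i3 lie lowest of the called genes at -7.11 and -5.47.

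The receptor genes check each library for the loss of the 2 mouse genes. Nr1i2, on the minus strand of chromosome 16 (38248323 to 38294824 of GRCm38), had counts of 2, 0 and 0 in the 3 Car KO/hPXR libraries and of 114, 113 and 126 in the WT libraries. Reads were counted on mouse genes alone, so that transcripts of human PXR would not appear here, and the mouse gene was at least 35-fold lower than in WT mice by edgeR's quasi-likelihood test (adjusted p = 5.21e-08). Nr1i3, on the plus strand of chromosome 1 (171213970 to 171220701), had counts of 3, 2 and 5 in Car KO/hPXR mice against 184, 116 and 207 in WT mice, a log2 fold change of -5.47 (SE 0.48, adjusted p = 4.13e-06). In these 2 genes all 6 libraries followed their labels. The mouse genes are also replaced in hCAR/hPXR mice, whose libraries overlapped with Car KO/hPXR in both. Their counts therefore separate humanised from WT libraries but not the 2 humanised genotypes from each other.

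Genes next to the altered loci were examined as well. Of the genes annotated within 500 kb, 9 around Nr1i2 and 20 around Nr1i3 were tested, and apart from the receptor genes themselves 0 of them were called (with an unadjusted p-value under 0.05 in edgeR for 4, namely Tomm40l, Pcp4l1, Apoa2 and Rpl27-ps1). Tomm40l, which encodes a relative of the TOM40 channel of the outer mitochondrial membrane and lies on the other strand across the end of Nr1i3 (171216011 to 171222514), had counts of 2, 0 and 0 in the Car KO/hPXR libraries. They were 16, 15 and 12 in WT mice given CITCO, 15, 40 and 17 in WT mice given corn oil and 12, 17 and 6 in hCAR/hPXR mice. Its level was at least 4.25-fold lower than in WT mice given CITCO (adjusted p = 0.053) and at least 6.57-fold lower than in WT mice given corn oil, where it was called (adjusted p = 0.048, edgeR's quasi-likelihood test). Because the strand used in counting is not given in the sources used here, reads of Nr1i3 and Tomm40l in the shared interval cannot be told apart. Apoa2, an apolipoprotein of HDL that lies beyond both genes (171225054 to 171226379), had 3477, 2562 and 2586 CPM against 4054, 3272 and 5118 CPM (log2 fold change -0.53, adjusted p = 0.379).

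**Figure D2:**
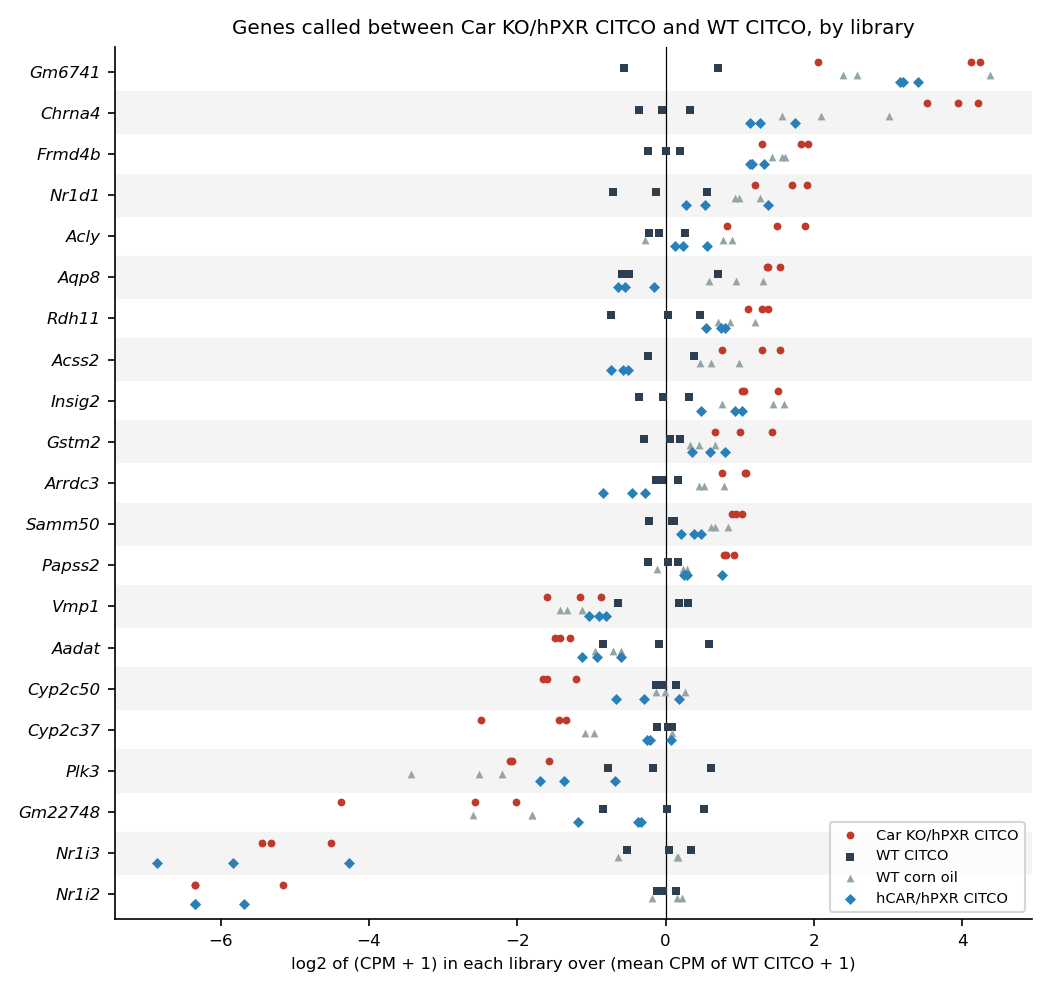
Level of 21 of the called genes in each library, as the log2 of (CPM + 1) over (mean CPM of WT CITCO + 1), with 3 points a group. The red points (Car KO/hPXR CITCO) and the dark squares (WT CITCO) do not overlap in any row, and the grey triangles (WT corn oil) lie apart from the red points in 11 of the 21 rows. Of all 8594 genes tested, 484 were higher and 516 lower than WT corn oil without overlap.

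Among the drug-metabolising P450s, 2 of 13 Cyp2c genes tested were called, both lower, and the 4 Cyp3a genes tested had positive fold changes that did not pass the test. Cyp2c50 fell in Car KO/hPXR mice, with 224, 303 and 231 CPM against 688, 645 and 777 CPM in WT mice given CITCO. This was a 2.79-fold lower level (log2 fold change -1.48, SE 0.20, adjusted p = 0.002, edgeR's quasi-likelihood test). Cyp2c37 had 74.3, 69.3 and 32.9 CPM against 193, 174 and 201 CPM, a log2 fold change of -1.68 (SE 0.29, adjusted p = 0.022). Both encode P450s that oxidise arachidonic acid. The neighbouring Cyp2c54 had 87.1, 107 and 59.96 CPM against 170, 178 and 253 CPM, again without overlap, and missed the threshold (log2 fold change -1.24, adjusted p = 0.053).

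Since these 3 paralogs are alike and RSEM divides a read that fits several of them, their counts were also summed, a choice made after the data were seen. The sum was 385, 479 and 324 CPM in Car KO/hPXR mice and 1052, 997 and 1231 CPM in WT mice given CITCO (log2 fold change -1.47, SE 0.21, adjusted p = 0.00244, edgeR's quasi-likelihood test). Against WT mice given corn oil (1328, 890.5 and 931 CPM) the sum was lower by a log2 fold change of -1.41 (adjusted p = 0.00682), and against hCAR/hPXR mice (904, 1232 and 790 CPM) by -1.30 (adjusted p = 0.00504). These comparisons share the Car KO/hPXR libraries and are not independent of each other.

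Of the 16 genes of the Cyp2c list, 13 were tested, 11 had negative fold changes, 2 were called lower and 0 higher, and the median log2 fold change was -0.43 beside 0.00 over all genes tested. The libraries did not overlap for 5 of them, all lower, beside 6.77% lower over all genes tested. Cyp2c67 (112, 188 and 154 CPM against 217, 263 and 248 CPM, log2 fold change -0.68, adjusted p = 0.228) and Cyp2c29 (647, 601 and 609 CPM against 850, 689 and 968 CPM, log2 fold change -0.43, adjusted p = 0.55) completed that set. Cyp2c70, which hydroxylates bile acids to muricholic acid in mice, differed by a log2 fold change of -0.03 (SE 0.18).

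The Cyp3a list of 9 genes had 4 tested members, all with positive fold changes and with a median of 0.94, and 0 of them were called by edgeR. An unadjusted p-value under 0.05 in edgeR was found for 3, all higher, beside 419 higher of all 8594 genes tested. DESeq2 called the 3 without overlap. Cyp3a11, the most abundant of them and the usual readout of PXR activity in mouse liver, had 1358, 2423 and 1551 CPM in Car KO/hPXR mice against 756, 811 and 1121 CPM in WT mice given CITCO. Its log2 fold change was 0.99 (SE 0.25, adjusted p = 0.114 with edgeR and 0.00452 with DESeq2). In WT mice given corn oil it had 1365, 702 and 907 CPM, which overlapped with the Car KO/hPXR libraries, and in hCAR/hPXR mice 3865, 3531 and 3488 CPM, which lay above them (log2 difference of Car KO/hPXR from hCAR/hPXR -1.03, adjusted p = 0.0673).

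Cyp3a25 had 508, 691 and 512 CPM against 246, 291 and 381 CPM (log2 fold change 0.90, SE 0.21, adjusted p = 0.0766 with edgeR and 0.00363 with DESeq2). Cyp3a59 had 37.5, 54.3 and 16.43 CPM against 4.54, 9.68 and 8.44 CPM (log2 fold change 2.25, SE 0.48, adjusted p = 0.0529 with edgeR and 0.000688 with DESeq2). Cyp3a13 overlapped between the groups (145, 200 and 166 CPM against 150, 165 and 152 CPM). Summed over the family, the level was 2052, 3377 and 2245 CPM against 1158, 1278 and 1665 CPM, a log2 fold change of 0.90 (SE 0.23, adjusted p = 0.117).

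Cyp2b10, the classical CAR target, had counts of 1, 0 and 3 in Car KO/hPXR mice and of 2, 6 and 2 in WT mice given CITCO, so that both groups lay near the floor. It was counted 281, 288 and 184 times in hCAR/hPXR mice given the same dose. Of the other tested members of the Cyp2a and Cyp2b list, Cyp2a5 overlapped between the groups (362, 293 and 306 CPM against 189, 170 and 372 CPM) and Cyp2a12 did not (212, 241 and 203 CPM against 263, 340 and 258 CPM, log2 fold change -0.39, adjusted p = 0.469).

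**Figure D3:**
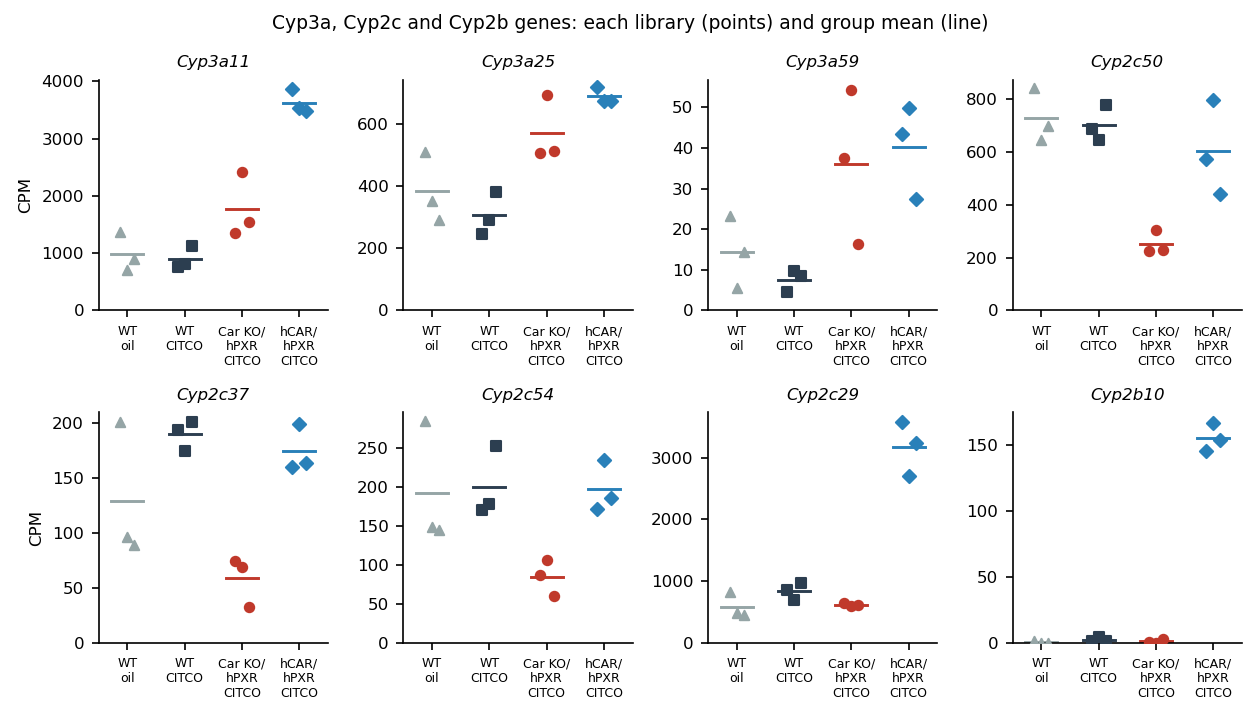
CPM of 8 P450 genes in each library (points) with the group mean (line), on linear axes from 0. Cyp2c50, Cyp2c37 and Cyp2c54 are lower in Car KO/hPXR CITCO than in every WT CITCO library, Cyp3a11, Cyp3a25 and Cyp3a59 are higher, and Cyp2b10 lies near 0 outside hCAR/hPXR CITCO.

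CAR and PXR bind pairs of the hexamer AGNTCA, read on either strand, for example as direct repeats separated by 3 or 4 bases (DR3, DR4) or as an everted repeat separated by 6 (ER6). The windows from 250 bases before to 50 after the start sites in RefSeq (GRCm38.p6) were searched for these motifs on both strands, with the P450 promoters shown because these are the genes by which the receptors are usually read. A window was listed for 19 of the 22 called genes. At least 1 hexamer was found in 13 of these 19 genes, some of which have several windows, and in 46.6% of all 32851 windows. The first count is by gene and the second by window, so that a gene with several windows has more chances of a match. DR3, DR4 or ER6 was found in 0 of the 19, beside 0.07%, 0.125% and 0.0304% of all windows. The Cyp3a11 window (chr5:145879805-145880104, minus strand) held 1 DR4, which began 172 bases before the start site and is in capitals with its spacer. No DR4 was found in the windows of Cyp3a13, Cyp3a25 and Cyp3a59 or in those of the Cyp2c genes searched. The windows of Cyp2c37 (chr19:39992174-39992473, plus strand) and Cyp2c50 (chr19:40089429-40089728, plus strand) held 1 and 2 hexamers, in capitals and reading on the other strand, and were the same at 263 of 292 aligned positions (90.1%).
Cyp3a11: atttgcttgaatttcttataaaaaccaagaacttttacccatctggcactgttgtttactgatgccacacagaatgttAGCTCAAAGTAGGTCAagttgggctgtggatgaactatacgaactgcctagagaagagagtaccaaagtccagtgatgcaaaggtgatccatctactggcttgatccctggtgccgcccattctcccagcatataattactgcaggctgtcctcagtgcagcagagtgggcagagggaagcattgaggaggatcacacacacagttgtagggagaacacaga
Cyp2c37: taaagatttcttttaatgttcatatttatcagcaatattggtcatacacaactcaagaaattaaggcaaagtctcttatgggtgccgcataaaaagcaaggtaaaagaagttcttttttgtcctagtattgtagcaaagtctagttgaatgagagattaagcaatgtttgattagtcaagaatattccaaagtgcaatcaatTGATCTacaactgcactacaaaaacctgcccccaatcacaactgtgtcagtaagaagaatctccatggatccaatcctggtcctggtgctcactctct
Cyp2c50: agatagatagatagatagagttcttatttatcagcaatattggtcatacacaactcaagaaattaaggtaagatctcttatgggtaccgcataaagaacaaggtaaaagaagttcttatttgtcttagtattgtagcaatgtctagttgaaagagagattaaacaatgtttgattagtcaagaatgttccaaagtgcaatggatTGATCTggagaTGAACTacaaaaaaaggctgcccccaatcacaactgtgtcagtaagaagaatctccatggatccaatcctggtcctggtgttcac
A match is a description of the letters in this window alone, which leaves out distal enhancers.

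Among the other genes of drug metabolism, Gstm2 and Papss2 rose. Of the 39 tested genes of a list of 48 PXR and CAR targets, 23 had positive fold changes, with a median of 0.25. In this list 2 were called higher (Gstm2 and Papss2) and 2 lower (Cyp2c37 and Cyp2c50, given above). Over all genes tested, 0.163% were called higher and 0.0931% lower. The libraries did not overlap for 8 higher and 5 lower members, beside 7.45% and 6.77% over all genes tested. Gstm2, a glutathione S-transferase, rose to 222, 165 and 131 CPM from 85.0, 66.4 and 93.6 CPM (log2 fold change 1.08, SE 0.20, adjusted p = 0.030). Papss2, which makes the sulfate donor used by sulfotransferases, rose to 308, 281 and 287 CPM from 166, 138 and 183 CPM (log2 fold change 0.85, SE 0.17, adjusted p = 0.044, edgeR's quasi-likelihood test). It was the called gene with the highest adjusted p, followed on the other side of the threshold by Arid5b (0.0508), Mup9 (0.0529) and Hal (0.0529).

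Gstm2 was the 1 called gene among 19 glutathione S-transferases tested, of which 14 had positive fold changes (median 0.25). The groups did not overlap for 5, all higher, beside 7.45% over all genes tested. Gstm4 had 109, 111 and 130 CPM against 82.4, 53.9 and 77.4 CPM (log2 fold change 0.71, adjusted p = 0.107), and Gstt1 had 322, 291 and 299 CPM against 190, 194 and 252 CPM (log2 fold change 0.52, adjusted p = 0.172). The Ugt1a genes share their last exons, from which most 3' reads come, and were summed. The sum was 1973, 1755 and 1877 CPM in Car KO/hPXR mice and 1365, 1355 and 1848 CPM in WT mice given CITCO, and these overlapped (log2 fold change 0.30, SE 0.17, adjusted p = 0.622). Ces3b, a carboxylesterase, had 393, 432 and 323 CPM against 558, 689 and 427 CPM (log2 fold change -0.54, adjusted p = 0.27), and Ces2a, another, had 224, 281 and 265 CPM against 174, 171 and 177 CPM (log2 fold change 0.56, adjusted p = 0.314).

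Most genes of a list of cholesterol synthesis, uptake and their control had higher levels in Car KO/hPXR mice, 2 of the list past the threshold. Insig2, an ER protein that holds back the SREBP transcription factors, rose to 101, 142 and 103 CPM from 61.0, 38.0 and 47.8 CPM in WT mice given CITCO (log2 fold change 1.23, SE 0.24, adjusted p = 0.038, edgeR's quasi-likelihood test). Of the 27 genes of the list, all tested, 26 had positive fold changes, with a median of 0.55. The groups did not overlap for 14, all higher, while 7.45% of all genes tested were higher without overlap. Only Srebf2, which encodes the transcription factor of the pathway, had a negative fold change.

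The next genes of that list by p-value were Insig1 (119, 156 and 109 CPM against 82.4, 72.6 and 55.6 CPM, log2 fold change 0.86, adjusted p = 0.0529), Mvd (64.8, 51.8 and 52.6 CPM against 21.4, 20.7 and 30.3 CPM, log2 fold change 1.23, adjusted p = 0.0705), Hmgcs1 and Sc5d. Hmgcs1, an early enzyme of the pathway, had 765, 432 and 557 CPM against 274, 173 and 371 CPM (log2 fold change 1.10, SE 0.25, adjusted p = 0.0766). Sc5d, a late enzyme of the pathway, had 686, 550 and 802 CPM against 381, 401 and 414 CPM (log2 fold change 0.77, adjusted p = 0.0984). These 4 genes did not overlap between the groups and were called by DESeq2.

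Against WT mice given corn oil the differences were smaller. Summed over the list, the level was 6013, 4398 and 5435 CPM in Car KO/hPXR mice, 3540, 3125 and 3866 CPM in WT mice given CITCO, and 4066, 4980 and 5133 CPM in WT mice given corn oil, so that the Car KO/hPXR libraries lay above all WT CITCO libraries and overlapped with the corn oil libraries. The median log2 fold change of the list was 0.17 against WT corn oil, and 0 of its genes were called there. Insig2 had 83.3, 150 and 136 CPM in WT mice given corn oil (log2 fold change -0.09).

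**Figure D4:**
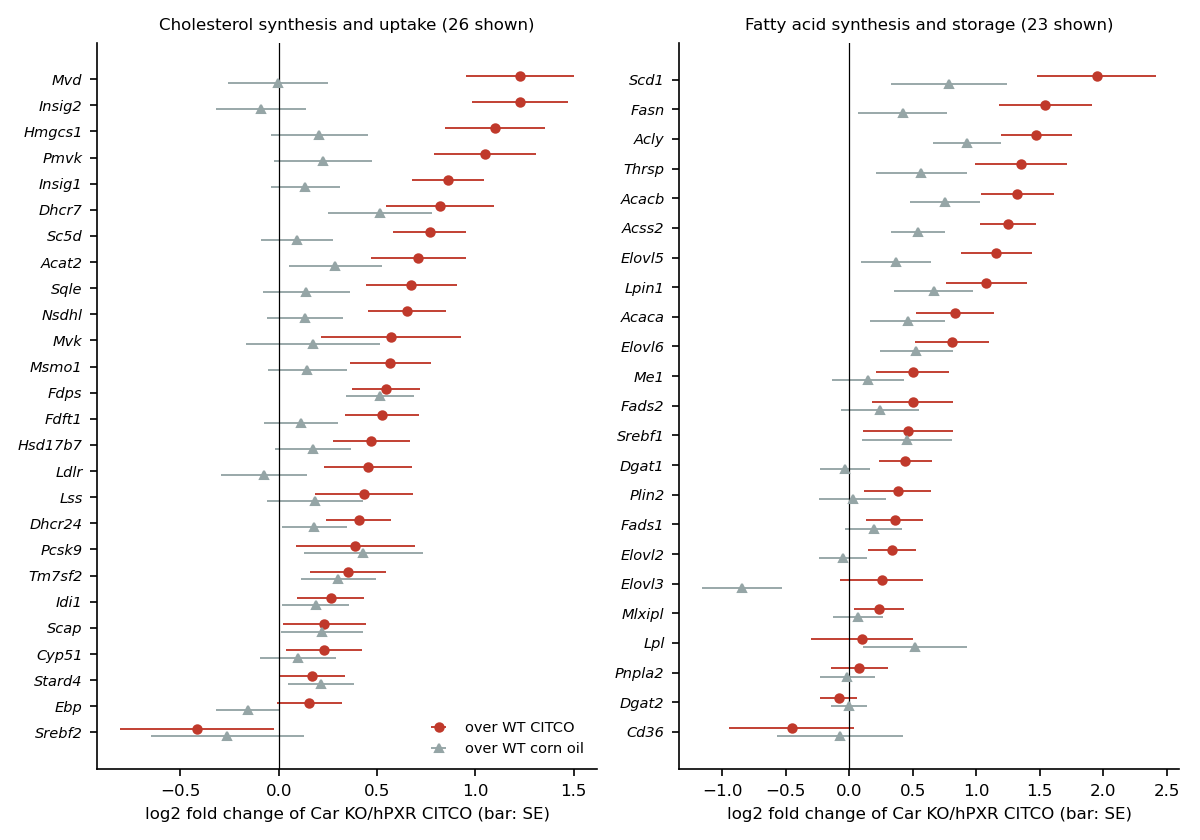
Log2 fold change of Car KO/hPXR CITCO over WT CITCO (red circles) and over WT corn oil (grey triangles) with its SE, for 26 genes of cholesterol synthesis and uptake (left) and the 23 tested genes of fatty acid synthesis and storage (right). The red circles lie above 0 for 25 genes on the left and 21 on the right, and the 2 sets of values share the Car KO/hPXR libraries.

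Fatty acid synthesis showed the same direction. Acly, which makes cytosolic acetyl-CoA from citrate, rose to 444, 215 and 342 CPM from 114, 103 and 144 CPM (log2 fold change 1.47, SE 0.28, adjusted p = 0.030). Acss2, which makes it from acetate, rose to 180, 104 and 152 CPM from 51.9, 51.9 and 80.2 CPM (log2 fold change 1.25, SE 0.22, adjusted p = 0.025, edgeR's quasi-likelihood test). Of 29 genes, 23 were tested, 21 had positive fold changes (median 0.50), and 2 were called higher and 0 lower. The groups did not overlap for 11, all higher, beside 7.45% over all genes tested.

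Acacb, an acetyl-CoA carboxylase, had 79.4, 54.3 and 86.2 CPM against 28.5, 29.0 and 30.3 CPM, without overlap (log2 fold change 1.325, SE 0.29, adjusted p = 0.0621 with edgeR and 0.00417 with DESeq2). Scd1, the desaturase that makes monounsaturated fatty acids, had 6755, 3858 and 5720 CPM in Car KO/hPXR mice against 642, 1001 and 2595 CPM in WT mice given CITCO. The groups did not overlap, but the WT libraries themselves differed widely and the gene was not called (log2 fold change 1.95, SE 0.47, adjusted p = 0.0984). Fasn, the fatty acid synthase, had 659, 219 and 476 CPM against 140, 119 and 208 CPM (log2 fold change 1.54, adjusted p = 0.0958), and Elovl5 had 1313, 864 and 1093 CPM against 353, 351 and 761 CPM (log2 fold change 1.16, adjusted p = 0.0977). Summed over the list, the level was 14760, 9504 and 13590 CPM against 4548, 4541 and 7344 CPM, and 6140, 8750 and 11840 CPM in WT mice given corn oil. Scd1 alone gave 6755, 3858 and 5720 CPM of the Car KO/hPXR sums and 642, 1001 and 2595 CPM of the WT CITCO sums. Against WT corn oil the median was 0.37 and 0 genes were called.

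Genes of glucose and glycogen metabolism had positive fold changes in 20 of 25 tested members (median 0.22), with 0 called and 9 at an unadjusted p-value under 0.05 in edgeR, all higher. Over all 8594 genes tested, 419 were higher at that threshold. Khk, the first enzyme of fructose use, had 1027, 733 and 924 CPM against 497, 541 and 561 CPM (log2 fold change 0.75, SE 0.16, adjusted p = 0.0607 with edgeR and 0.00126 with DESeq2). Igfbp1, a binding protein of insulin-like growth factors, had 47.7, 117 and 139 CPM against 27.2, 19.4 and 61.9 CPM, which overlapped (log2 fold change 1.47, adjusted p = 0.114). Sds, which turns serine into pyruvate, had 123, 86.8 and 99.4 CPM against 49.3, 65.7 and 38.7 CPM (log2 fold change 1.01, adjusted p = 0.169). Fatty acid oxidation genes were called in 0 of 27 tested members, 21 of which had negative fold changes (median -0.17). Acsl1, which activates long-chain fatty acids, had 424, 514 and 495 CPM against 645, 714 and 704 CPM (log2 fold change -0.53, adjusted p = 0.257).

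The largest increase among the called protein-coding genes was that of Chrna4, a subunit of the neuronal nicotinic acetylcholine receptor on chromosome 2 (181018380 to 181043546). It had 55.3, 34.2 and 46.0 CPM in Car KO/hPXR mice against 1.95, 1.38 and 2.81 CPM in WT mice given CITCO, where its counts were 3, 2 and 4, near the floor. The fitted log2 fold change was 4.42 (SE 0.46, adjusted p = 4.22e-05, edgeR's quasi-likelihood test). WT mice given corn oil had 8.06, 12.0 and 23.6 CPM and hCAR/hPXR mice 5.70, 6.36 and 9.18 CPM, so that the Car KO/hPXR libraries lay above all others in the series. Against WT corn oil the log2 fold change was 1.66 (adjusted p = 0.141).

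Samm50, of the machinery that inserts proteins into the outer mitochondrial membrane, rose to 189, 196 and 206 CPM from 86.3, 107 and 109 CPM (log2 fold change 0.97, SE 0.15, adjusted p = 0.0077). Frmd4b, a FERM domain protein, rose to 29.9, 46.8 and 43.5 CPM from 11.68, 9.68 and 13.4 CPM (log2 fold change 1.77, SE 0.25, adjusted p = 0.00227, edgeR's quasi-likelihood test). In WT mice given corn oil Frmd4b had 36.3, 33.1 and 37.4 CPM, within the range of the Car KO/hPXR libraries. Aqp8, a water channel of hepatocytes, rose to 117, 104 and 104 CPM from 26.0, 27.7 and 64.7 CPM (log2 fold change 1.46, SE 0.28, adjusted p = 0.034). Rdh11, a retinol dehydrogenase, rose by a log2 fold change of 1.29 (SE 0.24, adjusted p = 0.030), and Arrdc3, an arrestin-like regulator of receptor traffic, by 0.99 (SE 0.19, adjusted p = 0.034).

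Nr1d1, which encodes the clock repressor REV-ERB alpha, rose to 88.3, 145 and 126 CPM from 22.7, 34.6 and 56.3 CPM (log2 fold change 1.66, SE 0.31, adjusted p = 0.030). In WT mice given corn oil it had 92.7, 76.2 and 73.7 CPM. Of the 19 clock genes tested it was the only one called, and the median of the list was 0.08. Bhlhe40, another clock repressor, had 65.4, 71.8 and 76.4 CPM against 35.7, 31.8 and 53.5 CPM (log2 fold change 0.82, adjusted p = 0.170).

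Beside the receptors and the Cyp2c genes, 4 genes fell. Vmp1, a membrane protein needed for autophagy, had 82.0, 60.1 and 100 CPM in Car KO/hPXR mice against 209, 227 and 117.5 CPM in WT mice given CITCO (log2 fold change -1.19, SE 0.23, adjusted p = 0.0305). Plk3, a polo-like kinase, had 15.9, 10.9 and 10.7 CPM against 75.3, 43.6 and 28.1 CPM (log2 fold change -1.95, SE 0.39, adjusted p = 0.038). Aadat, a mitochondrial aminotransferase of lysine and kynurenine breakdown, had 32.4, 29.2 and 27.9 CPM against 75.9, 121 and 44.3 CPM (log2 fold change -1.42, SE 0.29, adjusted p = 0.038, edgeR's quasi-likelihood test). Vmp1 and Plk3 were at 68.4 to 83.8 CPM and 3.62 to 9.85 CPM in WT mice given corn oil, so that in these 2 genes the WT CITCO libraries stood above those of both Car KO/hPXR CITCO and WT corn oil.

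The remaining called features were a snoRNA and a pseudogene. Gm22748, annotated as a snoRNA, had counts of 0, 3 and 5 against 44, 29 and 15. Gm6741, a processed pseudogene, had counts of 8, 32 and 30 against 0, 0 and 2, and was at least 9.21-fold higher. Reads of a processed pseudogene can come from its parent gene, and both values are uncertain.

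Major urinary protein genes, which code for pheromone carriers and follow growth hormone in male liver, had negative fold changes in all 19 tested members, with a median of -0.90 and 0 called by edgeR. An unadjusted p-value under 0.05 in edgeR was found for 10, beside 380 lower of all 8594 genes tested. Summed over the list, the level was 71800, 105700 and 73980 CPM in Car KO/hPXR mice and 146600, 186100 and 65440 CPM in WT mice given CITCO. WT replicate 3 therefore lay below all 3 Car KO/hPXR libraries, and without WT replicates 1 and 2 the median of the list was 0.09. Mup9 had 39.4, 25.1 and 33.7 CPM against 251, 642 and 42.2 CPM (log2 fold change -3.24, adjusted p = 0.0529). These paralogs share reads, and their fold changes are not independent of each other.

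Acute phase genes differed between the WT libraries in the same way. Saa2, serum amyloid A2, had 36.2, 50.1 and 18.1 CPM in Car KO/hPXR mice and 955.5, 476 and 24.6 CPM in WT mice given CITCO, and Saa1 had 185, 381 and 82.1 CPM against 2321, 1828 and 78.1 CPM. Neither was called (adjusted p = 0.0705 and 0.247). Serpina3m, a protease inhibitor, had the smallest p-value of the list and a fold change of the opposite sign (497.5, 438 and 431 CPM against 277, 248 and 322 CPM, log2 fold change 0.69, SE 0.15, adjusted p = 0.0695 with edgeR and 0.00363 with DESeq2), without overlap. Haptoglobin (Hp) did not overlap (1365, 1260 and 1315 CPM against 3553, 2616 and 1613 CPM, log2 fold change -0.98, SE 0.27, adjusted p = 0.146). Of 29 acute phase genes tested, 25 had negative fold changes (median -0.20) and 0 were called. At an unadjusted p-value under 0.05 in edgeR, 1 was higher and 6 were lower, beside 419 and 380 of all 8594 genes tested. The part of this spread in the genes called above was not tested beyond leaving out these libraries.

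Hepatocyte transcription factors were called in 0 of 24 tested genes (median -0.15), with 4 higher and 7 lower at an unadjusted p-value under 0.05 in edgeR. The numbers over all 8594 genes tested were 419 higher and 380 lower. Onecut1 (HNF6) had 47.7, 41.8 and 43.5 CPM in Car KO/hPXR mice against 144, 113 and 90.1 CPM (log2 fold change -1.38, SE 0.30, adjusted p = 0.0607 with edgeR and 0.00188 with DESeq2), and WT mice given corn oil had 7.61, 7.76 and 23.6 CPM. Foxa1, a pioneer factor of liver genes, had 1.91, 3.34 and 2.46 CPM, near the floor, against 16.9, 17.3 and 9.85 CPM (fitted log2 fold change -2.50, SE 0.59, adjusted p = 0.0952). Hhex, an early liver homeobox gene, had 69.3, 22.5 and 72.3 CPM against 135, 169 and 89.4 CPM (log2 fold change -1.25, adjusted p = 0.157). In these 3 genes the Car KO/hPXR libraries lay below WT CITCO without overlap. Bile acid synthesis genes were called in 0 of 24 tested (median 0.06). Cyp7b1, an oxysterol hydroxylase, overlapped (106, 219 and 109 CPM against 339, 427 and 141 CPM, log2 fold change -1.07, adjusted p = 0.216). Slc27a2, which activates fatty and bile acids, had 215, 224 and 152 CPM against 304, 268 and 281 CPM (log2 fold change -0.53, adjusted p = 0.255). Cyp7a1, the rate-limiting enzyme, had 62.9, 44.3 and 40.2 CPM against 98.6, 44.9 and 124 CPM (log2 fold change -0.85, adjusted p = 0.373).

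Cell cycle genes were hardly detected. Mki67, the usual marker of proliferating cells, had counts of 1, 0 and 0 in Car KO/hPXR mice and of 2, 1 and 0 in WT mice given CITCO, at or below the floor in both groups, so that a difference was not detectable at this depth. Pcna had counts of 16, 22 and 22 against 26, 19 and 31 (log2 fold change -0.17, SE 0.39). Of the S phase list 11 of 43 genes were tested and of the G2/M list 14 of 54, with 0 called and 0 at an unadjusted p-value under 0.05 in edgeR. Glul, the pericentral glutamine synthetase, had 1508, 1341 and 1203 CPM against 1004, 916 and 1157 CPM, without overlap (log2 fold change 0.40, SE 0.21, adjusted p = 0.591). Meg3, a non-coding RNA, had counts of 8, 1 and 0 against 1, 4 and 3.

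Markers of stellate cells had negative fold changes in all 8 tested members (median -0.40, 0 called), with summed levels of 248 to 329 CPM in Car KO/hPXR mice and 316 to 468 CPM in WT mice given CITCO. Kupffer cell markers had a median of -0.31, with 0 of 12 called. In bulk liver, fewer cells of a type and less RNA per cell cannot be told apart. In the 16 other pathway lists with 3 or more tested members, the median lay between -0.39 (Cyp2a, Cyp2b and Cyp2g genes) and 0.15 (periportal genes), and calls in them were limited to Papss2, Nr1d1 and Cyp2c37, already named.

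**Figure D5:**
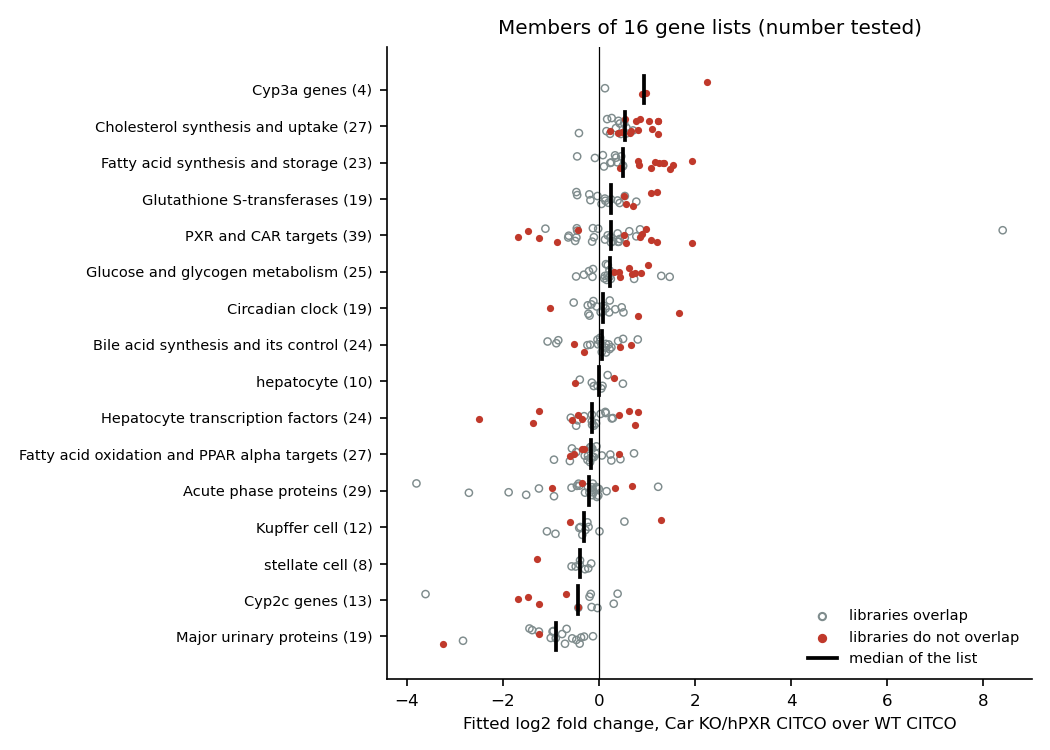
Fitted log2 fold changes of Car KO/hPXR CITCO over WT CITCO for the tested members of 16 gene lists (number in brackets), ordered by the list's median (black bar). Red points are genes with no overlap between the 3 Car KO/hPXR and 3 WT CITCO libraries, and the medians run from -0.90 (major urinary proteins) to 0.94 (Cyp3a genes). The point at 8.41 is Ugt1a1, whose reads cannot be separated from those of the other Ugt1a genes.

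The same Car KO/hPXR libraries were set against the other groups. Against WT mice given corn oil, 4 of the 8594 genes (0.0465%) were called, all lower, namely Nr1i2, Nr1i3, Cyp2c50 and Tomm40l, with 481 genes at an unadjusted p-value under 0.05 in edgeR. Cyp2c50 had 842, 646 and 698 CPM in WT mice given corn oil, so that its level in Car KO/hPXR mice was lower than in all 6 WT libraries (log2 fold change against corn oil -1.53, SE 0.20, adjusted p = 0.00167). For 17 of the 22 genes the mean of WT corn oil lay between the means of Car KO/hPXR CITCO and WT CITCO, for Insig2, Vmp1 and Plk3 it lay past that of Car KO/hPXR, and for Nr1i2 and Cyp2c50 past that of WT CITCO. The 22 genes were selected by their difference from WT CITCO, and the place of WT corn oil over all genes was not examined. Against hCAR/hPXR mice given CITCO, 50 genes (0.582%) were called, 24 higher and 26 lower in Car KO/hPXR mice. This comparison tests whether the 2 humanised genotypes differed from the shared WT mice by different amounts. Among the 50 were 7 of the 22 genes, including Chrna4, Acss2, Aqp8, Cyp2c37, Cyp2c50 and Arrdc3. The 22 genes were selected with the same Car KO/hPXR libraries, so that the 7 are no independent check. Neutrophil markers summed to 34.1 to 50.04 CPM in hCAR/hPXR mice against 6.57 to 10.9 CPM in Car KO/hPXR mice, with 2 of the 8 markers tested. Of the 29 acute phase genes, 8 were called lower in Car KO/hPXR than in hCAR/hPXR mice (median log2 difference -0.98). Their part in the other calls was not tested.

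Leaving out 1 library at a time changed many calls. Nr1i2, Nr1i3, Chrna4, Cyp2c50 and Frmd4b were called in each of the 6 fits, Samm50 in 5, and the other 16 in 3 or fewer, with Insig2 in 0. The highest adjusted p of these 16 genes in those fits lay between 0.106 (Cyp2c37) and 0.278 (Plk3). All 22 genes kept their sign, which follows from the lack of overlap between the groups and is no further support. The number called was 5 without WT replicate 1, 6 without WT replicate 2, 58 without WT replicate 3, and 14, 16 and 10 without Car KO/hPXR replicates 1, 2 and 3.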

How the data were processed

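Liver RNA of 12 male mice in 4 groups of 3 was sequenced from the 3' ends of transcripts. According to the submitters' processing notes and methods, the authors trimmed reads with Trimmomatic (36), checked them with FastQC (11.7), aligned them to GRCm38 with STAR (2.5.2) and counted them with RSEM (1.3). The deposited expected counts (51912 genes) are not normalised, and 9.34% of the values above 0 are not whole, because RSEM divides reads that match several genes. The authors also deposited a table of 17859 genes with log2 values, used here only for an alternative. Totals ran from 1167008 to 2341557 counts, and intervals and floors of 3 counts cover counting error only. Strand settings are not given in the sources used here.

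Counts were rounded to whole numbers, filtered with filterByExpr and scaled by TMM, and a quasi-likelihood model with 1 mean per group was fitted to all 12 libraries (edgeR 4.0.16, R 4.3.3, limma 3.58.1, DESeq2 1.42.0). Genes with a Benjamini-Hochberg adjusted p under 0.05 and a fold change over 1.5 were called. The SE of a log2 fold change was derived from the F statistic. P-values measure the spread between these mice, and nothing says more on how the replicates were raised. The code was tested on simulated data.

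The named genes were the receptor genes, all called genes, the tested Cyp3a, Cyp2b and Cyp2c genes, from each other list the called members and up to 4 others with the smallest p, neighbours of the receptor genes past the test, the 3 genes on either side of the threshold, and Mki67, Pcna, Meg3 and Glul. Not all of these are printed for every list. Tomm40l, Pcp4l1, Rpl27-ps1, Apoa2 and Srebf2 are given where a count turned on them. 1 called gene is counted but not reported here. Members and lists were chosen with earlier results of these data known. Lists are described by counts and medians, beside those of all genes tested, with no list test. Alternatives were DESeq2, limma, the compared groups alone, other filters and scalings, a replicate block and leaving out libraries. Gene positions come from an annotation of GRCm38, and promoter windows from RefSeq (GRCm38.p6), in which 31 of 38 symbols were found.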

Additional observations from a re-analysis of the deposited data

Results flagged for a closer look

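In 7 of the 22 genes called against WT mice given CITCO, 6 of which are given here, the difference of Car KO/hPXR mice from the shared WT mice differed from that of hCAR/hPXR mice given CITCO, by the contrast of both humanised genotypes (edgeR's quasi-likelihood test, adjusted p under 0.05). The log2 difference of Car KO/hPXR from hCAR/hPXR mice was 2.70 for Chrna4, 1.89 for Aqp8, 1.87 for Acss2 and 1.49 for Arrdc3. It was -1.55 for Cyp2c37 and -1.26 for Cyp2c50. Both genotypes were compared with the same WT libraries, and the contrast shown here uses only the 6 humanised libraries. The 22 genes were selected with the same Car KO/hPXR libraries, so that this contrast is no independent check of them. Over all 8594 genes tested, 50 (0.582%) were called in it.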

How the results depend on the processing

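Against 22 genes called (14 higher, 8 lower), DESeq2 called 67 (43 and 24) on all 12 libraries and 72 (47 and 25) on the compared groups alone, edgeR 40 (25 and 15) on the compared groups alone, and edgeR without a filter on low counts 227 (115 and 112). The lower genes numbered 13 with limma on the deposited log2 values and 13 with a stricter filter. Leaving out 1 library gave 5 to 58 genes (2 to 27 higher, 3 to 31 lower). Without WT CITCO replicates 1 and 2 together, left out after the data were seen because their Saa1 counts were high, 5 were called (1 higher, 4 lower). Against hCAR/hPXR mice the 50 genes became 98 and 95 with DESeq2, 233 without a filter and 10 to 58 without 1 library, and against WT corn oil the 4 became 13, 19 and 95.

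With the replicate number as a block, 24 genes were called (14 higher), among them 18 of the 22, so that 4 calls were lost. With limma-voom, added after the data were seen, 17 of the 22 were called. Between Car KO/hPXR and WT CITCO, libraries of the same number correlated at 0.042, 0.075 and 0.030 and those of different numbers at -0.059 to 0.020. Each library thus correlated best with its own number, a hint from the data alone.

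Without WT replicates 1 and 2 the fold change turned for Saa1 (1.45), Saa2 (0.49), Cyp2a5 (-0.22), Cyp2c70 (0.22) and Cyp7b1 (0.0165), and list medians became 0.10 for PXR and CAR targets, 0.0882 for hepatocyte transcription factors, -0.36 for fatty acid oxidation, 0.0890 for acute phase, 0.0860 for Mup, 0.17 for Kupffer and -0.67 for stellate cell genes. With limma on log2 values the medians were -0.10 for hepatocyte transcription factors, 0.17 for glucose and -0.21 for stellate cell genes. Without 1 library they ran from -0.26 to -0.10 (hepatocyte transcription factors), 0.31 to 0.72 (fatty acid synthesis), 0.18 to 0.32 (glucose) and -0.57 to -0.22 (stellate cell), and the Cyp3a median was 1.29 without a filter. Fold changes that turned without 1 library were those of Cyp3a13 (-0.0045 to 0.23), Cyp2c70 (-0.15 to 0.0618) and Pcna (-0.34 to 0.0773), against corn oil of Insig2 (-0.31 to 0.0771), Vmp1 (-0.0775 to 0.27) and Gm6741 (-0.0402 to 1.35), and against hCAR/hPXR mice of Nr1i2 (-1.82 to 2.83) and Nr1i3 (-0.0518 to 2.05). The cause was not tested.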
